A study of Mus musculus with 30 samples.

Results

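Myl7, Sln, Myl4 and Bmp10 are genes whose transcripts mark the atria of the adult mouse heart. The 4 genes were taken by name and matched by Ensembl identifier, out of 20764 genes listed for hearts and 54532 listed for HL-1 cells. The rule that names them uses no measured value, though they were picked with earlier results of these data known. They were followed in each heart and in each HL-1 culture as a readout of how much atrial RNA a sample held.

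Atrial and ventricular cardiomyocytes build their sarcomeres with different myosin light chains, and the atrial set is kept low in a healthy adult ventricle. Myl7 encodes the atrial regulatory light chain and Myl4 the atrial essential light chain, the counterparts of Myl2 and Myl3 in the ventricle. Sln encodes sarcolipin, a short membrane peptide that restrains the sarcoplasmic reticulum calcium pump SERCA. Bmp10 encodes a secreted BMP ligand, made chiefly in the right atrium of adult mice, which signals to endothelium through the receptor ALK1.

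Hearts came from female C57BL6 mice, per the study's methods a cross of the J and N substrains, in 6 groups of 3, each heart a separate library. Young mice were 2 months old and old mice 12 months, and both were killed at Zeitgeber time (ZT) 10, in the light phase, or ZT22, in the dark phase. Old mice drank water without (H2O) or with nicotinamide riboside (NR), a precursor of NAD+, at 3 g/L, and young mice drank water without it. HL-1 is a line derived from an atrial tumour of a mouse, and its 12 cultures formed 4 groups of 3, namely untreated, FK866 (an inhibitor of the NAD+ salvage enzyme NAMPT), FK866 with NR, and FK866 with NR and the SIRT1 inhibitor Ex527. All HL-1 cultures are of this single line, and the sources used here do not state how much of the atria was kept when hearts were collected for RNA, while the study's heart weights were biventricular. Heart libraries held 3922137 to 7562215 counts and HL-1 libraries 21337922 to 35000109.

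Myl7 lies on mouse chromosome 11 (GRCm38, 5896637 to 5898782, minus strand) and Myl4 on the same chromosome (104550663 to 104595753, plus strand). Sln lies on chromosome 9 (53850164 to 53854560, plus strand) and Bmp10 on chromosome 6 (87428994 to 87437677, plus strand). The annotation also places Gm11665 on the opposite strand within the Myl4 locus, and whether counting used strand is not given in the sources used here, so Myl4 counts may hold reads of that gene.

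Promoters of Myl7 and Bmp10 are shown because these genes parted across the hearts below. RefSeq promoter windows (GRCm38.p6) matched 3 of the 4 members, Myl7, Myl4 and Bmp10. The 250 bases before the start site are printed 5′ to 3′ on the strand of the gene, with matches to a GATA motif (AGATAA or TGATAA, either strand) in capitals. The window of Myl4 runs into the neighbouring gene Cdc27 and is not printed.
Myl7, chr11:5898783-5899032, minus strand: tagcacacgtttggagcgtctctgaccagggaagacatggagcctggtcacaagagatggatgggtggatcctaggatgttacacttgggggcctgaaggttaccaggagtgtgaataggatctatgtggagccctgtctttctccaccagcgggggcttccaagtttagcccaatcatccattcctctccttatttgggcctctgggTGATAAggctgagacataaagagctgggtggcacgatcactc
Bmp10, chr6:87428744-87428993, plus strand: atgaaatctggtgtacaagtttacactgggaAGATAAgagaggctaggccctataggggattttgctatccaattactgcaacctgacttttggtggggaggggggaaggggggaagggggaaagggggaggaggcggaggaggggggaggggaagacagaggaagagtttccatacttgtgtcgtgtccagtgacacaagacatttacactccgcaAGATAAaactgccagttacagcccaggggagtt

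The Myl7 window held 1 GATA match, 42 bases before the start, and the Bmp10 window held 2, at 219 and 33 bases before it. A GATA match was present in 16.6% of 32851 promoters of the same length. Searches on both strands for the MEF2 motif (3.20% of promoters), the TBX5 motif GGTGTG (16.3%) and the E-box CACGTG (6.02%) found no match in either window. The NKX2-5 motif AAGTG (40.7%) matched once in the Myl7 window and did not occur in that of Bmp10. These are matches of letters and say nothing about whether a factor binds.

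Levels are given as CPM, counts divided by library size after TMM scaling, and comparisons between genes as CPM per kilobase of the longest coding transcript in GENCODE M21. By length, Myl7 was the most abundant member across the 18 hearts, with a mean level of 113 CPM per kilobase, followed by Myl4 at 95.2, Sln at 17.6 and Bmp10 at 8.14. Counts ran from 112 to 704 for Myl7, from 144 to 1056 for Myl4, from 22 to 327 for Sln and from 1 to 1643 for Bmp10. All 4 genes passed the filter of an average count of 5. Most Bmp10 counts came from a few hearts, and its median count was 8.5.

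Few genes varied as much between hearts. The SD of log2 CPM across hearts was 0.72 for Myl7, 0.80 for Myl4, 1.10 for Sln and 3.14 for Bmp10, against a median of 0.18 over the 15443 genes tested. A larger SD was found for 5.44% of genes in the case of Myl7, 3.74% for Myl4 and 1.28% for Sln. No tested gene had a larger SD than Bmp10. Within groups the pooled SD was 0.52 for Myl7, 0.62 for Myl4, 0.86 for Sln and 3.26 for Bmp10. Nppa, the atrial natriuretic peptide gene, which diseased ventricle also makes, spread less, with an SD of 0.39 across hearts.

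Myl7 stood at 123, 99.7 and 145 CPM in the 3 old H2O hearts at ZT10 and at 29.8, 91.9 and 40.1 CPM in those at ZT22. In old NR hearts it stood at 37.5, 30.6 and 37.9 CPM at ZT10 and at 57.5, 62.4 and 47.8 CPM at ZT22. In young hearts it stood at 120, 55.4 and 54.0 CPM at ZT10 and at 51.6, 81.3 and 34.6 CPM at ZT22. Old H2O hearts at ZT10 held 3 of the 4 highest values, and old NR hearts at ZT10 held 3 of the 5 lowest. By group mean the order ran from old H2O at ZT10 (123 CPM) and young at ZT10 (76.3) through old NR at ZT22 (55.9), young at ZT22 (55.8) and old H2O at ZT22 (53.9) to old NR at ZT10 (35.3), and each group overlapped the next in this order.

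Sln, the calcium pump peptide, followed the same hearts over a wider range. Its levels were 48.5, 44.0 and 67.3 CPM in old H2O hearts at ZT10 and 9.47, 5.78 and 9.80 CPM in old NR hearts at ZT10. At ZT22 they were 5.86, 36.4 and 10.2 CPM in old H2O hearts and 19.96, 21.9 and 12.5 CPM in old NR hearts. Young hearts gave 47.6, 14.9 and 9.11 CPM at ZT10 and 15.5, 28.5 and 9.43 CPM at ZT22. The highest heart held 11.6-fold the level of the lowest, against 4.86-fold for Myl7 and 5.67-fold for Myl4.

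Myl4, the essential light chain of the atrium, stood at 152, 139 and 217 CPM in old H2O hearts at ZT10 and at 43.2, 43.0 and 43.1 CPM in old NR hearts at ZT10. At ZT22 the values were 38.3, 129 and 54.2 CPM in old H2O hearts and 72.7, 96.0 and 68.3 CPM in old NR hearts. Young hearts gave 187, 71.3 and 56.2 CPM at ZT10 and 56.7, 107 and 42.5 CPM at ZT22. Replicate 1 of the young group at ZT10 and replicate 2 of the old H2O group at ZT22 lay well above the other hearts of their groups, as they did for Myl7 and Sln.

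**Figure D1:**
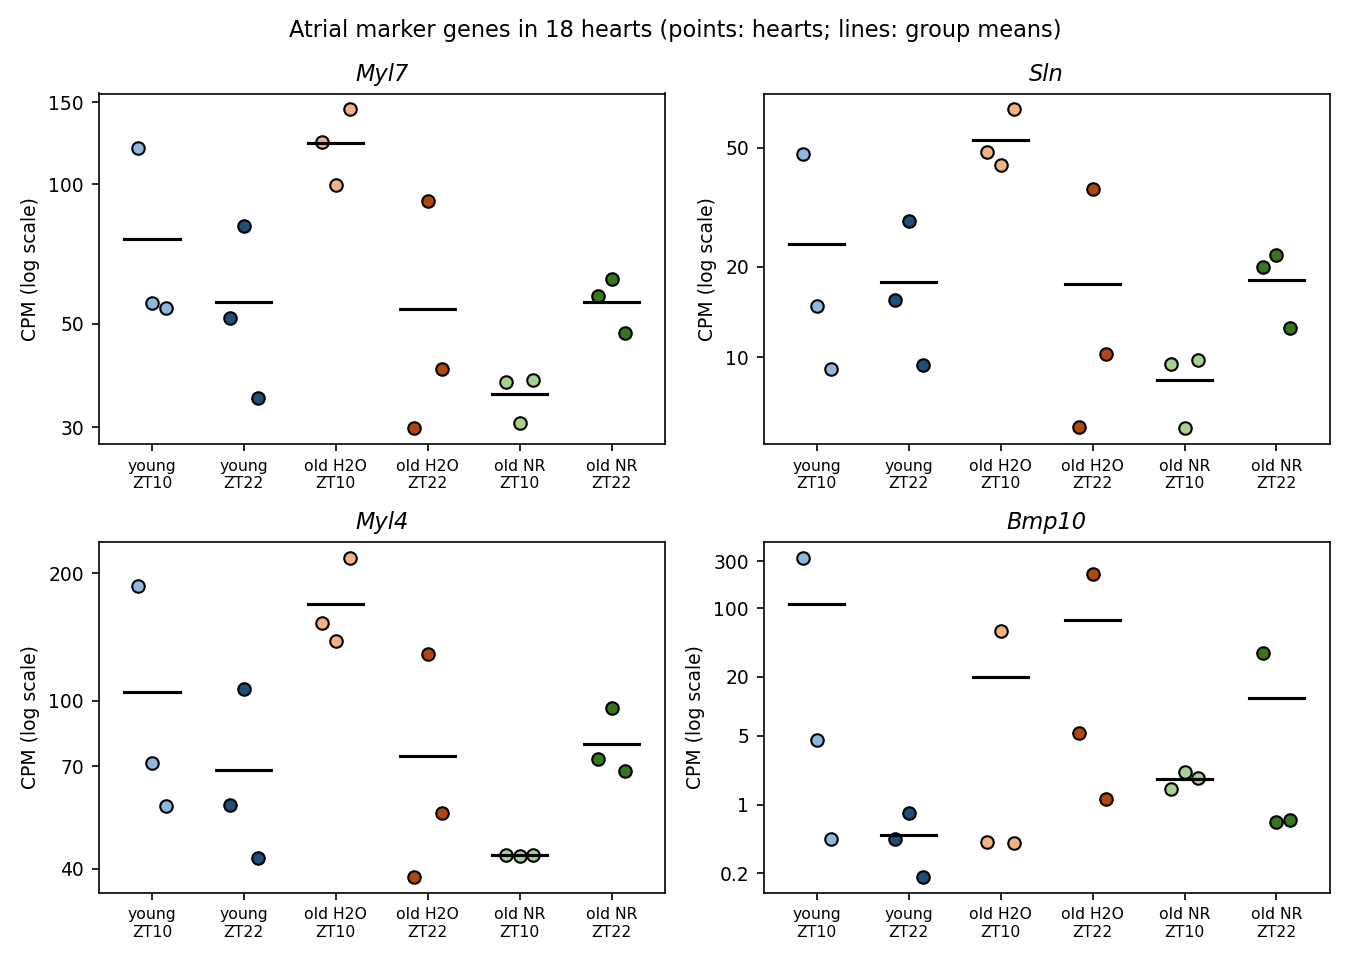
Level of each atrial marker gene in CPM (log scale) in each of the 18 hearts, by group, with 3 hearts a group and lines at the group means. Old H2O hearts at ZT10 sit at 99.7 to 145 CPM for Myl7 and old NR hearts at ZT10 at 30.6 to 37.9, while Bmp10 is at 34.9 CPM or more in 4 hearts of 4 groups and at 5.32 CPM or under in the other 14.

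Myl7, Sln and Myl4 moved together from heart to heart. Across the 18 hearts, Pearson's r of log2 CPM was 0.98 for Myl7 and Sln (Spearman's rho 0.95), 0.98 for Myl7 and Myl4 (rho 0.99) and 0.97 for Sln and Myl4 (rho 0.96). Each of these permutation p-values, for r and for rho, was 1e-05, the smallest that 100000 resamples can give, or 2e-05 after adjustment over the 6 pairs of members. Without the 2 hearts farthest from the median, r was 0.97, 0.98 and 0.96.

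The relation held within groups. With group means removed and values permuted inside groups, r was 0.97 for Myl7 and Sln, 0.97 for Myl7 and Myl4 and 0.96 for Sln and Myl4, each with an adjusted permutation p of 0.0001. The ratio of Myl4 to Myl7 counts varied less than that of Sln to Myl7. For each 100 counts of Myl7, a heart held 104 to 156 counts of Myl4 and 16.9 to 46.4 counts of Sln.

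Bmp10 was high in 4 of the 18 hearts. Its count was 1643 in replicate 1 of the young group at ZT10, 1366 in replicate 2 of the old H2O group at ZT22, 348 in replicate 2 of the old H2O group at ZT10 and 147 in replicate 1 of the old NR group at ZT22. The other 14 hearts held 25 counts or fewer, with a median of 5. In CPM these 4 hearts stood at 323, 220, 59.1 and 34.9, and the highest of the others at 5.32.

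The 2 hearts with most Myl7 were not among the 4 hearts high in Bmp10. Replicates 3 and 1 of the old H2O group at ZT10 ranked 1 and 2 of 18 for Myl7, at 145 and 123 CPM, and held 2 counts of Bmp10 each. The 4 hearts highest in Bmp10 ranked 3, 5, 4 and 8 of 18 for Myl7. For each 100 counts of Myl7 the hearts held 0.284 to 270.2 counts of Bmp10.

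Since the 4 hearts stand apart, no correlation of another member with Bmp10 is given over all 18. Among the 14 hearts with 25 counts or fewer, r with Bmp10 was -0.46 for Myl7, -0.47 for Sln and -0.41 for Myl4, and Spearman's rho was -0.50, -0.44 and -0.43. Without the 2 farthest hearts r was -0.31, -0.33 and -0.22, and with group means removed it was 0.19, 0.29 and 0.32. Before group means were removed, the permutation p of r over the 14 hearts was 0.0978 for Myl7, 0.0872 for Sln and 0.147 for Myl4. These p-values entered the adjustment over the 6 pairs of members. The 14 hearts were chosen by their own Bmp10 count, and several hold 1 or 2 counts. The values are therefore a description and show neither a relation nor its absence.

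**Figure D2:**
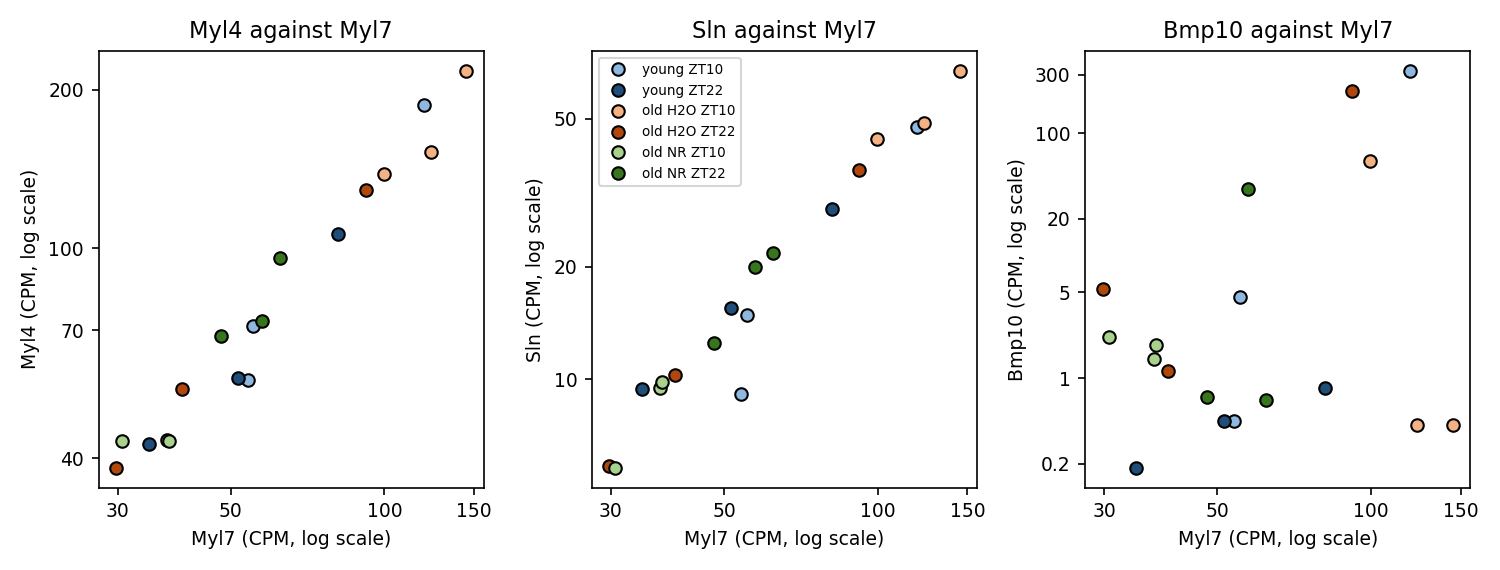
Level of Myl4, Sln and Bmp10 against Myl7 in CPM (both axes log scale), with a point for each of the 18 hearts coloured by group. Myl4 and Sln rise with Myl7 along a line (r of 0.98 for each), while 2 hearts with the most Myl7 lie at 0.41 CPM of Bmp10.

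The 12674 other genes with an average count of at least 20 were ranked by the correlation of their log2 CPM with the mean standardised level of the 4 members over the 18 hearts. Mybphl, which encodes a myosin-binding protein of atrial muscle, came first with r = 0.94. It was followed by Fgf12 (0.92), a modulator of sodium channels, Tmem163 (0.92), a zinc transporter, Dkk3 (0.89), a secreted Dickkopf glycoprotein, and Sbk3 (0.85), a kinase. Nppa (0.85), Cilp2 (0.84), Stard10 (0.84), Rxfp1 (0.83) and Slc7a7 (0.82) completed the leading 10, where the median r of all genes was 0.02.

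Mybphl ran from 11 to 334 counts over the hearts, Fgf12 from 6 to 161 and Tmem163 from 4 to 129. With group means removed, Mybphl (0.92) and Fgf12 (0.89) again led, followed by Srprb (0.88) and Tmem163 (0.87). Mybphl was also the gene most like Myl7 (r = 0.97), Sln (0.96) and Myl4 (0.98) taken singly. For Bmp10 alone the highest r over the 18 hearts was 0.69, for Exosc3, a subunit of the RNA exosome. That r includes the 4 hearts that stand apart for Bmp10, and their weight in it was not tested. None of the 5 genes most like Bmp10 was among the 10 above, which is a description only. All genes of a heart share its depth and its dissection, so the correlations across the 18 hearts describe likeness only.

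Of 14 further genes known to be richer in atrium than in ventricle, 5 were among the 20 most alike, beyond Mybphl and Nppa, namely Dkk3 (rank 4), Stard10 (rank 8), Gja5 (rank 18), Sbk2 (rank 19) and Kcnj3 (rank 20). Gja5 encodes connexin 40 and Kcnj3 a subunit of the acetylcholine-gated potassium channel. Not all atrial genes did so. Nr2f2, a transcription factor of atrial identity, had r = 0.05 and rank 5579, and Nr2f1 had r = -0.20.

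The comparison of NR with H2O in old hearts asked whether the members differed between hearts with and without long NR supply. At ZT10, Myl7, Sln and Myl4 were lower in NR hearts than in H2O hearts. The log2 fold change was -1.80 ± 0.33 (SE) for Myl7 (edgeR adjusted p = 0.0227), -2.69 ± 0.52 for Sln (0.0286) and -1.97 ± 0.39 for Myl4 (0.0313). Here 3 of the 4 members were called lower, where 0.285% of 15443 tested genes were called, 0.117% higher and 0.168% lower. Bmp10 differed by -3.54 ± 2.50 (adjusted p = 0.652), with 2, 348 and 2 counts in H2O hearts and 8, 15 and 11 in NR hearts.

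These calls are fragile to the number of hearts. Leaving out replicate 1 or 3 of the H2O group, or any of the 3 NR hearts, left 0 of the 3 genes called, and leaving out replicate 2 of the H2O group left 2 called. The fold changes stayed within -1.93 to -1.66 for Myl7, -2.82 to -2.46 for Sln and -2.10 to -1.75 for Myl4.

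Other cardiac genes were read in the same hearts. Mybphl was called lower (log2 fold change -3.03 ± 0.62, adjusted p = 0.0393), and it was the only called gene of the 14 further atrial genes. Of these, 11 had a negative fold change, with a median of -0.39, where the median of all genes was -0.003. Nppa differed by -0.90 ± 0.20 (adjusted p = 0.0522), Dkk3 by -1.48 ± 0.37 (0.1004), Gja5 by -0.71 ± 0.19 (0.144) and Kcnj3 by -0.32 ± 0.08 (0.0974). Kcnj5, Tbx5, Nr2f1, Nr2f2 and Cacna1d ran from -0.09 for Tbx5, a transcription factor, to 0.17 for Cacna1d, a calcium channel gene, and none of these 5 passed the test.

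The summed level of the 4 members was 325 to 430 CPM in old H2O hearts at ZT10 and 81.6 to 92.6 CPM in old NR hearts at ZT10. That of 8 ventricular genes was 1530 to 1811 CPM and 1437 to 1570 CPM, with a median fold change of -0.02 and none called. The slope of log2 count on log2 library total was 0.36 for Myl2, 0.22 for Myl3 and 0.58 for Kcnip2 on this list. It was 0.73 to 1.54 for the other genes of the list, with a median of 1.18 over all tested genes. Small fold changes of Myl2, Myl3 and Kcnip2 are therefore no measure of stability. The summed level of 7 sinus node and pulmonary vein genes, among them the pacemaker channel gene Hcn4, was 69.3 to 79.0 CPM and 86.8 to 106.7 CPM, with none called of 6 tested. Fibroblast genes summed to 601 to 692 CPM and 503 to 576 CPM, again with none of 3 called. Those of 4 adipose genes (67.7 to 74.0 CPM and 75.9 to 79.8 CPM), of 3 red blood cell genes (104.8 to 123.6 CPM and 88.2 to 98.0 CPM) and of 3 thymus genes, all near 0, also did not overlap between the groups. Sums of the 14 further atrial genes (1692 to 2043 CPM and 1278 to 1451 CPM) did not overlap either. Nor did those of 15 myosin genes, Myl7 and Myl4 among them (4623 to 5315 CPM and 3989 to 4564 CPM). With 3 hearts against 3, an exact permutation p cannot go below 0.1, so a lack of overlap carries little weight. The part of these lists in the result was not tested. In bulk heart RNA, fewer atrial cells and less RNA of the members per cell, atrial or ventricular, cannot be told apart. How much of the atria was kept in these hearts is not given in the sources used here.

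At ZT22 none of the 4 members was called between NR and H2O hearts, where 0.35% of genes were called (0.0907% higher, 0.259% lower). At this time 1737 genes had an unadjusted p under 0.05, with no member among them. The log2 fold change was 0.01 ± 0.33 for Myl7, -0.02 ± 0.51 for Sln, 0.07 ± 0.39 for Myl4 and -3.11 ± 1.56 for Bmp10 (adjusted p = 0.471). Old H2O hearts at ZT22 were spread from 29.8 to 91.9 CPM for Myl7, and the NR hearts lay inside that range.

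The difference between the times was itself tested. The interaction of NR with time was -1.81 ± 0.46 for Myl7 (edgeR adjusted p = 0.115), -2.66 ± 0.74 for Sln (0.169) and -2.04 ± 0.55 for Myl4 (0.139), with no member called against 0.343% of all genes (0.233% higher, 0.11% lower). It passed for Myl7, Sln and Myl4 when replicate 2 of the old H2O group at ZT22 was left out (adjusted p = 0.0194, 0.0301 and 0.0362). That heart was the highest of its group for all 4 members. Each NR comparison at a time shares its hearts with the interaction.

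Between ZT10 and ZT22 in old H2O hearts, the question was whether these genes differ by time of day. Myl7 was higher at ZT10 (log2 fold change 1.14 ± 0.31, edgeR adjusted p = 0.0381), the single member called, against 4.2% of genes (1.56% higher, 2.64% lower). Sln differed by 1.54 ± 0.46 (0.0640) and Myl4 by 1.16 ± 0.37 (0.0822). Without replicate 2 at ZT22 all 3 were called, and without any other single heart except replicate 2 at ZT10 none was. The DESeq2 fit called none.

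In old NR hearts the sign was the other way. Myl7 differed by -0.67 ± 0.35, Sln by -1.12 ± 0.58 and Myl4 by -0.88 ± 0.41 between ZT10 and ZT22. The edgeR adjusted p-values were 0.325, 0.324 and 0.252. None was called, where 5.37% of genes were (2.36% higher, 3.01% lower). A fit of these 6 hearts alone called all 3 (adjusted p = 0.00298, 0.0126 and 0.000369).

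In young hearts the comparison of ZT10 with ZT22 gave calls for 14.4% of genes (6.8% higher and 7.57% lower at ZT10), and Bmp10 was the only member among them. Its log2 fold change of 7.71 ± 2.55 (edgeR adjusted p = 0.0462) came from counts of 1643, 25 and 2 at ZT10 and 2, 5 and 1 at ZT22. The groups overlapped, and without the heart at 1643 counts the fold change was 2.37 (adjusted p = 0.819). Leaving out any of the 3 hearts at ZT22 also ended the call, and DESeq2 gave no p for Bmp10. Myl7 differed by 0.44 ± 0.33, Sln by 0.41 ± 0.52 and Myl4 by 0.60 ± 0.39, none of them called.

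With age, no member passed at either time. At ZT10 old H2O hearts exceeded young ones by 0.67 ± 0.30 for Myl7 (edgeR adjusted p = 0.219), 1.14 ± 0.45 for Sln (0.156) and 0.68 ± 0.36 for Myl4 (0.308), where 5.87% of genes were called (2.95% higher, 2.92% lower). Without replicate 1 of the young group, the heart high for all 4 members, these became 1.16, 2.12 and 1.40 and all 3 were called (0.0403, 0.0157 and 0.0288). At ZT22 the 3 genes differed by -0.03 ± 0.33, 0.01 ± 0.52 and 0.12 ± 0.40, where 14.1% of genes were called (7.96% higher, 6.17% lower).

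Bmp10 was at 20, 1366 and 9 counts in old H2O hearts at ZT22 and at 2, 5 and 1 in young hearts at ZT22. The log2 fold change was 7.21 ± 2.67 (edgeR adjusted p = 0.0757). Without the heart at 1366 counts it was 2.29 (0.827), and leaving out replicate 1 or 3 of the old H2O group instead brought Bmp10 past the threshold. The interaction of age with time was -9.55 ± 2.97 for Bmp10 (0.0553), where 6.89% of genes were called (3.13% higher, 3.76% lower), and from 0.56 to 1.13 for the other members, none of them called. Age comparisons share the old H2O hearts with the NR comparisons above.

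**Figure D3:**
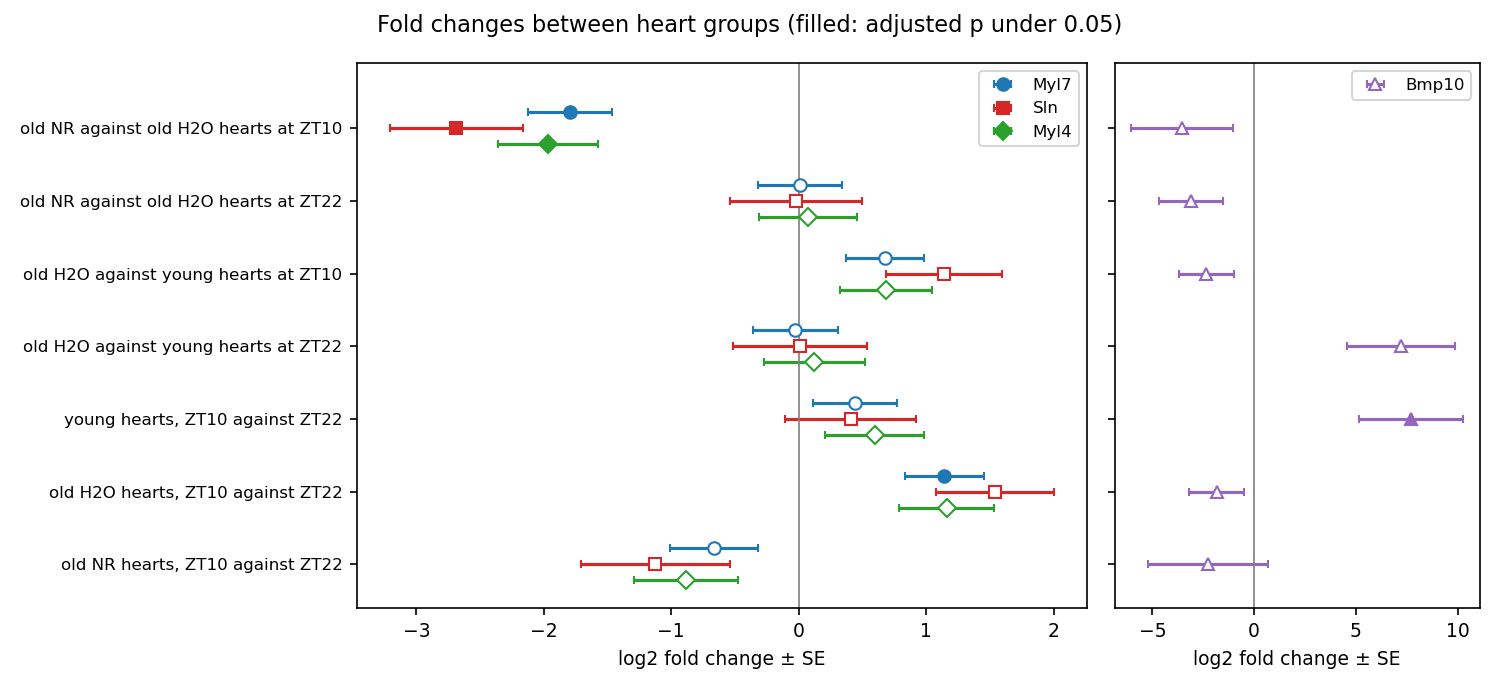
Log2 fold change with SE of Myl7, Sln and Myl4 (left) and Bmp10 (right, wider axis) in each of 7 comparisons of 3 hearts with 3, with filled symbols where the edgeR adjusted p was under 0.05. The 3 left-hand genes lie close together in each comparison, from -2.69 to -1.80 for NR against H2O at ZT10 and near 0 at ZT22.

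Light chain usage gives a ratio inside each library. The share of Myl7 among Myl7 and Myl2 counts was 25.0%, 23.7% and 29.2% in old H2O hearts at ZT10 and 10.2%, 9.99% and 10.3% in old NR hearts at ZT10. The means were 26.0% ± 2.86 and 10.2% ± 0.18 (SD, n = 3), which do not overlap, and the exact two-sided permutation p was 0.1, the smallest that 3 hearts against 3 allow. At ZT22 the shares were 14.2% ± 8.41 in H2O hearts and 15.1% ± 2.86 in NR hearts (n = 3 each, exact permutation p = 0.9). The matching share of Myl4 among Myl4 and Myl3 at ZT10 was 32.1% ± 4.44 and 12.4% ± 1.17 (n = 3 each, exact permutation p = 0.1). By age, the Myl7 share was 26.0% against 17.0% ± 6.55 in young hearts at ZT10 (exact permutation p = 0.2) and 14.2% against 13.8% ± 6.11 at ZT22 (exact permutation p = 1).

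These shares rest on counts from which the authors had removed duplicate reads, and in single-end data a short transcript has few distinct read positions. Myl2 held 1634 to 2112 counts across hearts, a 1.29-fold range, where library totals spanned 1.93-fold. Myl3 spanned 1.18-fold and Actc1, cardiac actin, 1.12-fold. The slope of log2 count on log2 library total was 0.36 for Myl2 and 0.22 for Myl3, against a median of 1.18 over all tested genes.

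The members were less dense. Myl2 reached 2.38 reads per base of its longest transcript, Myl7 1.19, Myl4 1.12, Bmp10 0.366 and Sln 0.248. Counts of Myl7 still ranged 6.29-fold across hearts and those of Myl4 7.33-fold, with slopes of 0.88 and 1.16. The light chain shares are thus shares of reads left after this step, and its part in the Myl7 and Myl4 differences was not tested. Sln and Mybphl, at 0.262 reads per base or under, showed wider ranges, 14.9-fold and 30.4-fold.

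**Figure D4:**
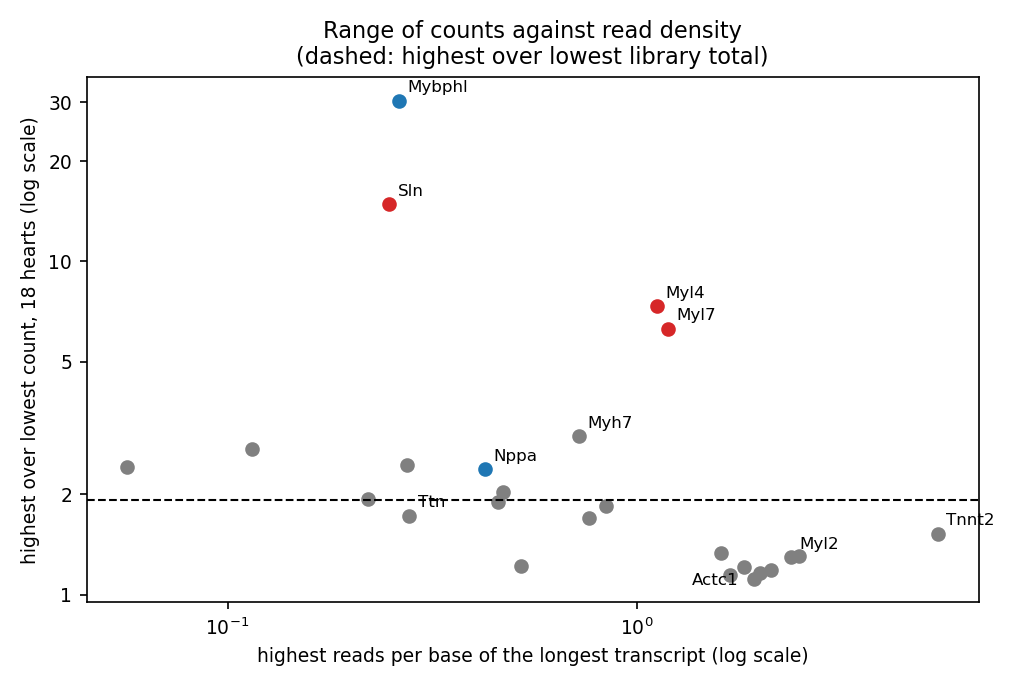
Highest over lowest count across 18 hearts (log scale) against the highest number of reads per base of the longest transcript (log scale), with a point for each gene, members in red, Nppa and Mybphl in blue, ventricular and general cardiomyocyte genes and Pln in grey, and Bmp10 (1643-fold) left off. The genes denser than Myl7 span 1.12-fold to 1.52-fold, under the dashed line of library totals at 1.93-fold, whereas Myl7 and Myl4 span 6.29-fold and 7.33-fold.

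Genes that work with the members were read from fixed lists. Of 12 genes for SERCA and its regulators, Sln was the only gene called between NR and H2O hearts at ZT10, and the list's median fold change was -0.17. Counts of several abundant partners barely followed depth, with slopes of 0.20 for Atp2a2 and 0.26 for Pln, which encodes phospholamban, against the median of 1.18, so small fold changes of these genes are no measure of stability. Slc8a1, the sodium-calcium exchanger, was the single gene of this list called with age at ZT10 (0.34 ± 0.10, edgeR adjusted p = 0.0403). Of 15 myosin light chains, their kinases and the cardiac heavy chains, Myl7 and Myl4 were called lower with NR at ZT10 and no other gene was, with a median of -0.16. At ZT22 Myh7, the slow heavy chain, was called lower with NR (-0.69 ± 0.15, adjusted p = 0.0469). Myh7 was also called higher in old H2O than in young hearts at ZT22 (1.01 ± 0.15, adjusted p = 0.000161) and higher at ZT10 than at ZT22 in young hearts (0.52 ± 0.15, adjusted p = 0.0249), and it was called in the interaction of age with time (-0.94 ± 0.21, adjusted p = 0.00993).

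Of 26 genes of BMP10 and BMP9 signalling, 24 were tested and none was called between NR and H2O hearts at either time. Smad6, an inhibitory SMAD, was the only gene of the list called in the interaction of NR with time (0.59 ± 0.12, edgeR adjusted p = 0.0333). Between ZT10 and ZT22 in young hearts, the comparison that holds the heart with 1643 counts of Bmp10, 3 of the 24 tested genes were called higher and 2 lower, where 6.8% and 7.57% of all genes were. Besides Bmp10, Bmp4 (0.62 ± 0.13, adjusted p = 0.00326) and Tcap (0.61 ± 0.15, adjusted p = 0.00588), a Z-disc protein, were higher, and the receptor genes Acvrl1, which encodes ALK1 (-0.23 ± 0.07, adjusted p = 0.0239), and Acvr2a (-0.39 ± 0.07, adjusted p = 0.00104) were lower at ZT10. Between old H2O and young hearts at ZT22, 4 of the 24 were called higher, where 7.96% of all genes were, among them Smad9 (0.84 ± 0.18, adjusted p = 0.00335), a receptor-regulated SMAD, and 2 lower, where 6.17% were, among them Id1 (-0.31 ± 0.09, adjusted p = 0.0265), a BMP target.

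In HL-1 cultures the members were close to absent despite the atrial label. Over the 12 cultures Myl7 held 3 to 24 counts and Myl4 2 to 27, which is 0.139 to 0.901 CPM and 0.0799 to 0.971 CPM. Sln had 0 counts in 11 cultures and 1 count in the other. Bmp10 held 0 to 3 counts. A count of 0 allows up to 3 counts per culture, and these limits cover counting error only. In hearts the lowest Myl7 level was 29.8 CPM, though the tables were normalised separately and hold different library types.

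Of the 14 further atrial genes, 4 exceeded a mean of 1 CPM in HL-1, namely Pam, Stard10, Nr2f1 and Nr2f2, and the list summed to 196 to 236 CPM, of which Pam, a widely expressed enzyme of peptide amidation, made up a mean of 159.8 CPM. Most other markers of cardiomyocytes were at or near 0. Nppa held 0 to 3 counts, Mybphl 0 to 3, Myh6 0 to 6 and Nkx2-5 0 to 3. Myl2, Actc1, Tbx5, Irx4 and Kcnj5 were at 0 in every culture. Of 8 ventricular genes only Irx5 exceeded a mean of 1 CPM, and of 11 general cardiomyocyte genes only Atp2a2, Gata4 and Tnnc1 did, of which Atp2a2, the SERCA gene, is widely expressed. The sarcomere and atrial peptide markers that define atrial cardiomyocytes were therefore near 0 in cultures so labelled.

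Genes of epicardium and mesothelium were abundant in the same cultures. All 5 on the list exceeded 1 CPM, and their sum ran from 3338 to 4098 CPM, against 12.1 to 30.2 CPM in hearts. Upk3b stood at 1288 to 1625 CPM, Krt19 at 604 to 981, Wt1 at 469 to 668, Upk1b at 458 to 626 and Msln at 262 to 409. Tbx18, listed with the sinus node and also known from epicardium, stood at 68.9 to 87.8 CPM and Col1a1, a fibroblast collagen, at 466 to 763 CPM.

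**Figure D5:**
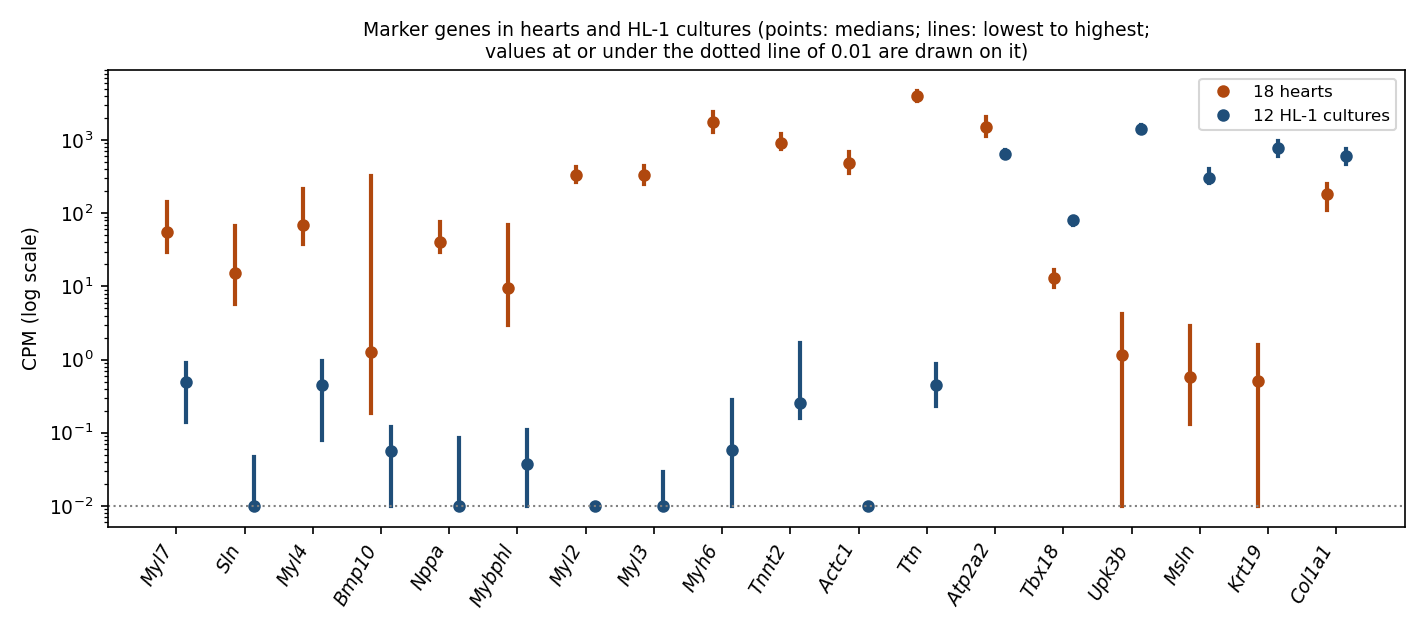
Median, lowest and highest level in CPM (log scale) of 18 marker genes in the 18 hearts and the 12 HL-1 cultures, with values at or under 0.01 CPM drawn on the dotted line. The 4 members and the cardiomyocyte genes from Nppa to Ttn lie at 1.69 CPM or under in all HL-1 cultures, while Upk3b, Msln and Krt19 lie at 262 CPM or more there and at 4.22 CPM or under in hearts.

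Myl7 and Myl4 were tested in HL-1, and Sln and Bmp10 fell under the count filter and are given no fold change. Calls needed an edgeR adjusted p under 0.01 and a log2 fold change beyond 0.58. Neither gene was called in any of 5 comparisons. Between FK866 and untreated cultures, where 4.59% of 14760 genes were called (2.09% higher, 2.5% lower), Myl7 stood at 0.490, 0.901 and 0.709 CPM against 0.200, 0.519 and 0.433 CPM (log2 fold change 0.85 ± 0.48, adjusted p = 0.222). With NR added to FK866 it stood at 0.139, 0.524 and 0.318 CPM (-1.08 ± 0.50 against FK866, adjusted p = 0.123), where 4.81% of genes were called (2.79% higher, 2.02% lower). The FK866 and FK866 NR cultures overlapped.

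Myl4 changed by -0.21 ± 0.58 with FK866 (adjusted p = 0.824) and by 0.49 ± 0.57 with NR added to FK866 (0.549). When Ex527 was added to FK866 and NR, Myl7 differed by 0.78 ± 0.51 (0.383) and Myl4 by 0.50 ± 0.51 (0.606), with 0.596% of genes called (0.21% higher, 0.386% lower). Against untreated cultures, FK866 with NR differed by -0.23 ± 0.54 for Myl7 and 0.28 ± 0.55 for Myl4 (0.901% of genes called, 0.793% higher and 0.108% lower), and with Ex527 as well by 0.54 ± 0.49 and 0.78 ± 0.51 (1.42% called, 0.61% higher and 0.806% lower). At 2 to 27 counts a culture, differences of this size did not pass the test. The comparisons share cultures, so their values are not independent.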

How the data were processed

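RNA of 18 mouse hearts and 12 HL-1 cultures was measured by mRNA sequencing. Per the submitters' processing notes and the study's methods, heart reads (single-end, stranded kit) were trimmed with Trimmomatic 0.39 and aligned with STAR 2.7.10a to mm10, duplicates, multi-mapping, ribosomal and mitochondrial reads were removed (Picard 3.0.0), and featureCounts 2.0.4 counted genes. For HL-1 the notes name HISAT2, HISAT and TopHat2, and duplicate handling is not given in the sources used here. The deposited values used are raw counts per gene. The deposited normalised heart counts gave only gene symbols (a table of scores, counts normalised and rounded by the authors), and the deposited FPKM and the authors' own comparisons were not used.

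Counts were analysed with edgeR 4.0.16 (R 4.3.3), TMM scaling and the quasi-likelihood test, with all groups of a table in 1 fit and Benjamini-Hochberg adjustment over all tested genes. In hearts, genes with an average count of at least 5 entered the test (15443), and a call needed an adjusted p under 0.05. In HL-1, filterByExpr kept 14760 genes. Log2 CPM used a prior count of 0.5. The study's methods describe replicates as individual mice and as wells cultured apart, all HL-1 wells being of 1 line. In simulated data with 200 genes changed by 1 on the log2 scale, 173 were recovered with 10 false calls for NR against H2O at ZT10 over 15443 genes. For FK866 against untreated HL-1 cultures 140 of 200 were recovered with 3 false calls, scored on adjusted p alone. The changed genes were drawn at random, and the members vary more than most genes, so these numbers are no measure of power for the members. Alternatives were DESeq2 1.42.0, its size factors, other filters, only the groups compared, a replicate block and leaving out each library. Bmp10 correlations over 14 hearts and likeness to single members were chosen after seeing the data.

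Members and gene lists were chosen with earlier results of these data known. Genes named are the 4 members, called list genes, and the genes most alike by correlation. Of the lists, skeletal muscle, nerve, smooth muscle, adipose, red blood cell and endothelium had no gene called between NR and H2O hearts at ZT10. Only 1 of 5 nerve genes and 5 of 9 skeletal muscle genes were tested. No lung or thymus gene passed the count filter, so those lists were not tested.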

Additional observations from a re-analysis of the deposited data

How the results depend on the processing

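Of 46 fold changes of members, 33 kept their direction and their side of the threshold under every alternative fit, and 10 did so also without any single library. The 3 calls for NR against H2O at ZT10 held under all alternative fits, with adjusted p from 1.85e-08 to 0.0235 for Myl7, 2.19e-08 to 0.0324 for Sln and 1.85e-08 to 0.0339 for Myl4, but not under removal of a library. With DESeq2, 0 members passed between the times in young hearts, where it gave no p for Bmp10, and 0 in old H2O hearts, and Sln turned to -0.0256 for old H2O against young hearts at ZT22 and to 0.0431 for NR against H2O at ZT22. With only the groups compared in the fit, 2 members were called between the times in old H2O hearts, 3 in old NR hearts, 1 with age at ZT10 and 2 in the interaction of NR with time. With no filter on low counts 1 member was called in the interaction of age with time. Same-numbered libraries were not treated as pairs in the main fit. In hearts the median correlation of their deviations was 0.0762 (over 0.1 in 19 of 45 pairs), against -0.0445 for differently numbered libraries. In HL-1 it was -0.0025 (over 0.1 in 6 of 18 pairs), against -0.0033. Whether replicate number marks a shared factor was not tested. The replicate block called 2 members between the times in old H2O hearts, 1 with age at ZT22 and 1 in the interaction of age with time. Removing group means turned the correlation of Bmp10 with Myl7 to 0.19, with Sln to 0.29 and with Myl4 to 0.32. The cause of these changes was not tested.

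Leaving out each library in turn, the number of members called ran from 0 to 2 for NR against H2O at ZT10, from 0 to 3 for the times in old H2O hearts, for age at ZT10 and for the interaction of NR with time, and from 0 to 1 for the times in young hearts, for age at ZT22 and for the interaction of age with time. The difference in Myl7 share ran from -3.01 to 5.35 points for NR at ZT22 and from -3.96 to 4.40 points for age at ZT22. The Bmp10 fold change ran from -7.48 to 3.06 between the times in old H2O hearts, from -2.97 to 1.41 in old NR hearts, from -7.98 to 2.98 with age at ZT10, from -4.07 to 2.10 with NR at ZT10, from -6.79 to 1.84 with NR at ZT22 and from -5.37 to 5.20 in the interaction of NR with time. With age at ZT22, Myl7 ran from -0.65 to 0.38, Sln from -1.07 to 0.58 and Myl4 from -0.54 to 0.62. With NR at ZT22, Myl7 ran from -0.22 to 0.63, Sln from -0.38 to 1.05 and Myl4 from -0.18 to 0.74. Between the times in young hearts, Myl7 ran from -0.0436 to 0.85, Sln from -0.57 to 0.98 and Myl4 from -0.12 to 1.10. In HL-1, Myl4 ran from -0.67 to 0.16 with FK866 and from -0.18 to 0.65 for FK866 with NR against untreated, and Myl7 from -0.70 to 0.091 for the latter. Counts of 22 to 327 for Sln and 1 to 25 for Bmp10 in most hearts limit the precision of their fold changes.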
